A study of Danio rerio with 6 samples.

Results

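Genes of the Notch pathway, namely receptors, ligands and direct targets, were followed in blood progenitors sorted from zebrafish embryos (Danio rerio). The 10 genes asked for were the receptors notch1a, notch1b and notch3, the ligands dll4 and dlc, and the targets nrarpa, nrarpb, her15.1, her15.2 and her6. They were found by zebrafish symbol, or by the capital form of the symbol without its paralog letter where only that is listed. This gave 9 gene IDs of the 32520 in the count files, made up of 3 receptors, 2 ligands and 4 targets. Both notch1 paralogs are listed as NOTCH1 and both nrarp paralogs as NRARP, so each of these IDs is named here by its Ensembl number and not as paralog a or b. No ID matched her6 by this rule.

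Each library was made from 30000 cells taken at 20 hpf (hours post fertilization) and sorted for red fluorescent protein (RFP), which a gene-trap allele of blf drives. The 3 libraries of genotype blf-/-;drl 4KO, in which both blf and the drl genes are targeted, are called the compound mutants here. The other 3 libraries are the controls of the series title. Their genotype is entered as blf-/- with the samples but as blf+/- in the design text, and no label settles this. By the design text RFP came from the trap allele in both groups, so the sort depends on the blf locus. The labels do not say whether replicates were separate clutches or sorting runs, and p-values cover only the spread between these libraries, which may be technical.

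Notch receptors are membrane proteins that are cut when a Delta or Jagged ligand on a neighbouring cell binds them. The freed inner part enters the nucleus, joins the DNA-binding protein RBPJ and switches on target genes such as the her and hey repressors and nrarp. In the zebrafish embryo the pathway is known for its part in arterial fate and the emergence of blood stem cells from the vessel wall, in nerve cell formation and in the segmentation clock of the tailbud.

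Total counts ranged from 12751618 to 18101975 over the 6 libraries. Levels are given as CPM, read counts scaled to a common library size with TMM factors. The targeted gene blf averaged 2644 CPM in the controls (SD 167, n = 3) and 81.2 CPM in the compound mutants (SD 36.4, n = 3). The 4 drl genes had 2 to 11 reads each over all compound mutants and 1255 to 22955 over all controls. Of 10 red cell marker IDs 9 fell in the compound mutants, and 10 of 12 tested myeloid and 7 of 9 epidermal marker IDs rose. Of all tested genes, 13.0% rose and 9.92% fell. Of the 14 myeloid IDs, tested or not, 8 share the symbol MFAP4. All 10 red cell IDs, 10 myeloid IDs and 4 epidermal IDs reached the level of the filter on low counts in all 3 controls. The epidermal krt5 and cldni reached it in no control and so had to be higher in the compound mutants. In bulk RNA, more cells of a type and more RNA per cell cannot be told apart.

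Of the 9 Notch IDs, 4 rose in the compound mutants, 0 fell and 5 did not pass. A gene passed at an adjusted p under 0.05 in edgeR's quasi-likelihood test, with Benjamini-Hochberg adjustment over all 14517 genes tested. The background share of genes called higher was 13.0%, and that of genes called lower was 9.92%. The 4 that rose were the receptor gene NOTCH3 and the target genes NRARP (ENSDARG00000091419), her15.1 and her15.2. Every compound mutant lay above every control for 6 of the 9 IDs, against 22.7% of all tested genes. The median log2 fold change (compound mutant over control) was 2.30 over the 9 IDs and 0.11 over all tested genes. The members were chosen with earlier results of these data known, so these counts and this median are description only. All 9 passed the filter on low counts, but only 6 reached its level in each of the 3 controls, and an ID that passed it through the compound mutants alone had to be higher there. Without control replicate 2, 2 of the 9 IDs were called higher.

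**Figure D1:**
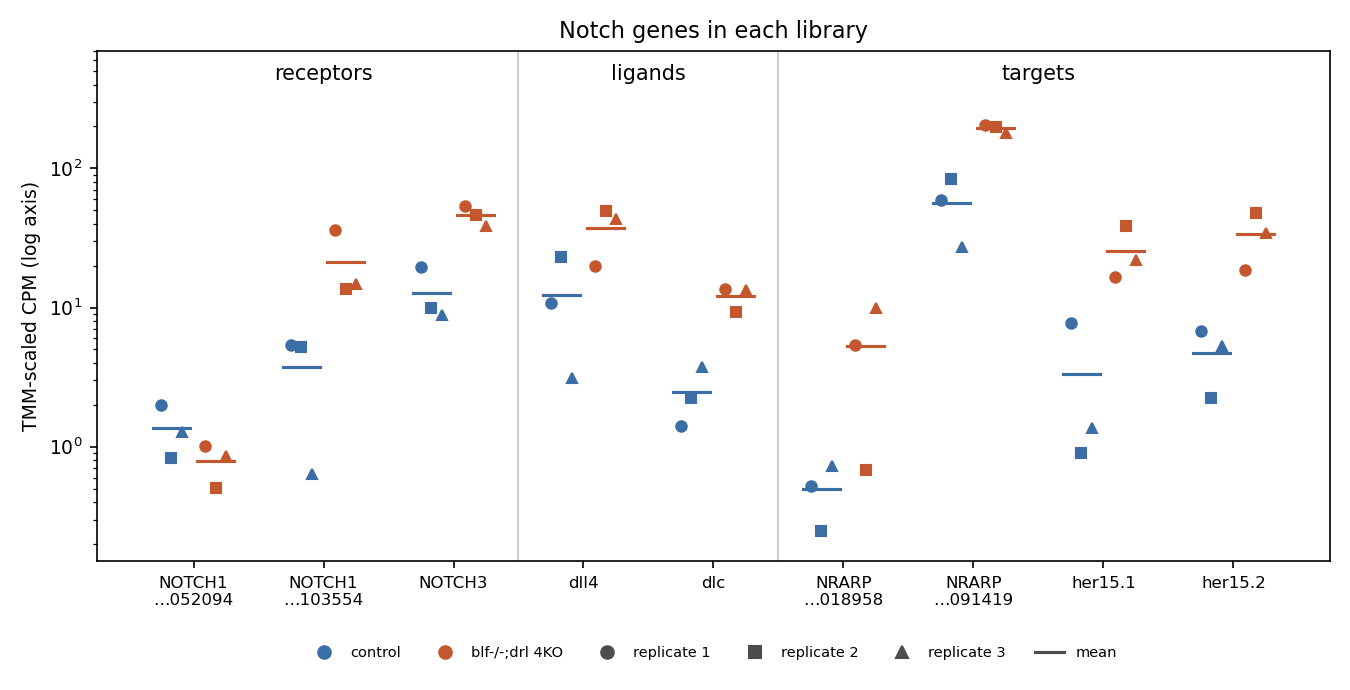
TMM-scaled CPM (log axis) of the 9 Notch IDs in the 3 control and 3 blf-/-;drl 4KO libraries. Each symbol is 1 library, each line is a group mean, and the last 6 digits tell apart IDs that share a symbol. NRARP (ENSDARG00000091419) sits between 180 and 207 CPM in the compound mutants, above its controls at 27.3 to 83.2 CPM, and NOTCH1 (ENSDARG00000052094) stays at or under 2.0 CPM in both groups.

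Among the receptors, NOTCH3 rose and neither NOTCH1 ID passed. NOTCH3 (ENSDARG00000052139) is a receptor known in mammals for its role in the smooth muscle of vessels. Its level in control replicates 1, 2 and 3, the order used throughout, was 19.5, 9.90 and 8.91 CPM, and the compound mutants held 53.6, 46.2 and 38.6 CPM. The groups did not overlap, and replicate 1 was the highest library of each. The ratio of mean CPM was 3.61 (log2 fold change 1.85, SE 0.45, edgeR adjusted p = 0.0126). Without control replicate 2 the call was lost, with a log2 fold change of 1.72 and an edgeR adjusted p of 0.0524.

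Mammalian and zebrafish notch1 genes are known for their need in the formation of blood stem cells. For NOTCH1 (ENSDARG00000103554) the controls held 5.40, 5.20 and 0.637 CPM and the compound mutants 35.9, 13.7 and 14.6 CPM. All compound mutants were above all controls, while control replicate 3, with 7 reads, lay 8.49-fold below the highest control. The log2 fold change of 2.51 (SE 0.86, edgeR adjusted p = 0.0572) did not pass. Other settings did call it: DESeq2 (adjusted p = 0.00641), a filter of 10 CPM in 3 libraries (0.0364), scaling by library totals (0.0392), no filter (0.0393) and limma-voom (0.0435). No control reached 10 CPM, so this ID met that filter through the compound mutants alone and had to be higher there.

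The second ID, NOTCH1 (ENSDARG00000052094), was at 2.0, 0.825 and 1.27 CPM in the controls, while the compound mutants held 1.01, 0.509 and 0.858 CPM, from 9 to 27 reads a library. The groups overlapped, and the log2 fold change of -0.78 (SE 0.75, edgeR adjusted p = 0.492) did not pass. Of the reads of both NOTCH1 IDs, ENSDARG00000103554 took 73.0%, 86.3% and 33.3% in the controls, and 97.3%, 96.4% and 94.5% among the compound mutants. The share was higher in every compound mutant, by 31.8 percentage points on average (exact two-sided permutation test, p = 0.1, the smallest p that 3 libraries against 3 can give). The lowest share, that of control replicate 3, rests on 21 reads (95% exact Clopper-Pearson interval 14.6% to 57.0%, which covers counting error only). Without that library the difference was 16.4 percentage points. Adding up the counts of both NOTCH1 IDs gave a log2 fold change of 2.12 (SE 0.73, edgeR adjusted p = 0.0590).

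Neither ligand ID passed, and both had fold changes above 0. dll4 (ENSDARG00000070425) encodes the Delta-like ligand of arteries and of sprouting vessel tips. The controls held 10.8, 23.0 and 3.09 CPM of dll4 and the compound mutants 19.8, 49.1 and 43.2 CPM. The groups overlapped, since control replicate 2 lay above compound mutant replicate 1, and the controls spanned a 7.44-fold range. The log2 fold change was 1.6 (SE 0.67, edgeR adjusted p = 0.112), and none of the 14 alternatives brought dll4 past the threshold.

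dlc (ENSDARG00000002336) encodes a Delta ligand of the zebrafish segmentation clock that is also used in vessels and the nervous system. Its controls held 1.41, 2.23 and 3.73 CPM, and the compound mutants 13.6, 9.28 and 13.5 CPM. Every compound mutant was above every control, and control replicate 3 was here the highest control. The log2 fold change of 2.30 (SE 0.82, edgeR adjusted p = 0.0672) did not pass. It passed with library totals, DESeq2, limma-voom and the filter of 10 CPM in 3 libraries, at adjusted p-values of 0.0374, 0.00338, 0.0346 and 0.0273. The last of these filters used CPM before TMM scaling, so it did not use the values printed above. With every control under 10 CPM on either scale, dlc met this filter through the compound mutants alone and had to be higher there.

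Of the 4 target IDs, 3 rose, beside 13.0% of all tested genes. Among these 3 are her15.1 and her15.2, between which the split of reads is uncertain. NRARP encodes an ankyrin repeat protein that Notch switches on and that limits Notch activity in turn. The controls held 58.9, 83.2 and 27.3 CPM of NRARP (ENSDARG00000091419), and the compound mutants 207, 197 and 180 CPM, from 2733 to 4109 reads each. The groups did not overlap, and the compound mutants lay within a 1.15-fold range while the controls spanned 3.05-fold. The ratio of mean CPM was 3.45 (log2 fold change 1.79, SE 0.34, edgeR adjusted p = 0.00375). NRARP (ENSDARG00000091419) was called under each of the 15 alternatives, which include a fit on the summed counts of both NRARP IDs.

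The other ID, NRARP (ENSDARG00000018958), had 3 to 8 reads in each control and 107, 12 and 150 reads in compound mutant replicates 1, 2 and 3. In CPM the controls held 0.518, 0.247 and 0.728 against 5.38, 0.679 and 9.90, so compound mutant replicate 2 lay within the range of the controls. No control reached the level of the filter. The log2 fold change of 3.40 (SE 1.23, edgeR adjusted p = 0.0699) did not pass, whereas it did without compound mutant replicate 2 (adjusted p = 0.0416) and with DESeq2 (0.0160). Of the reads of both NRARP IDs, ENSDARG00000091419 took 97.4% to 99.7% in the controls and 94.8% to 99.7% among the compound mutants, with overlap between the groups (exact two-sided permutation test, p = 0.6).

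her15.1 and her15.2 encode repressors of the Hes5 type that Notch turns on. Both carry the synonyms her15 and hes5 in the RefSeq gene table (assembly GRCz12tu), where no protein-coding gene starts between them. How reads that match both were counted is not stated, so the split between them is uncertain. The controls held 6.74, 2.23 and 5.28 CPM of her15.2 (ENSDARG00000054560) and the compound mutants 18.8, 47.4 and 34.6 CPM. The groups did not overlap, and compound mutant replicate 2 was the highest library. The ratio of mean CPM was 7.08 (log2 fold change 2.82, SE 0.62, edgeR adjusted p = 0.00789). her15.2 was called under each of the 15 alternatives, which include a fit on the summed counts of her15.1 and her15.2. Among the alternatives, her15.2 met the filter of 10 CPM in 3 libraries through the compound mutants alone.

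For her15.1 (ENSDARG00000054562) the controls held 7.77, 0.907 and 1.36 CPM and the compound mutants 16.5, 38.7 and 21.8 CPM. Control replicate 1 stood apart with 105 reads, against 11 and 15 in the other controls, yet lay below every compound mutant. Mean CPM was 7.67-fold higher (log2 fold change 2.93, SE 0.87, edgeR adjusted p = 0.0327). The call was lost without control replicate 2 or 3 (edgeR adjusted p = 0.0977 and 0.0891) and without compound mutant replicate 2 or 3 (0.115 and 0.0592). Without control replicate 1 her15.1 was called, with a log2 fold change of 4.44.

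Taken as 1 gene, her15.1 and her15.2 had 14.5, 3.13 and 6.64 CPM in the controls, and the compound mutants had 35.3, 86.1 and 56.4 CPM. The groups did not overlap (log2 fold change 2.87, SE 0.59, edgeR adjusted p = 0.00529). her15.1 took 53.6%, 28.9% and 20.5% of the joint reads in the controls, and 46.9%, 44.9% and 38.7% among the compound mutants. These shares overlapped between the groups (exact two-sided permutation test, p = 0.4).

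The name table lists 1 ID as HES1, the mammalian repressor gene to which zebrafish her6 is related, but does not say which zebrafish gene this ID is. It was taken up after its values were seen and is not counted among the 9. The controls held 37.5, 15.9 and 16.1 CPM of HES1 (ENSDARG00000006514) and the compound mutants 132, 126 and 127 CPM. The groups did not overlap, and the compound mutants lay within a 1.05-fold range. Mean CPM was 5.54-fold higher (log2 fold change 2.47, SE 0.36, edgeR adjusted p = 0.000726). HES4 (ENSDARG00000056438), a related repressor gene taken up in the same way, averaged 18.7 CPM in the controls (SD 4.01, n = 3) and 81.4 CPM in the compound mutants (SD 45.4, n = 3). Its log2 fold change was 2.12 (SE 0.42, edgeR adjusted p = 0.00421).

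The summed receptors, ligands and targets were each higher in every compound mutant than in every control. The 3 receptor IDs together spanned 10.8 to 26.9 CPM in the controls and 54.1 to 90.5 CPM in the compound mutants, a ratio of means of 3.82. The ligands spanned 6.82 to 25.2 against 33.3 to 58.3 CPM, a ratio of 3.35, and the targets 34.7 to 86.6 against 247 to 284 CPM, a ratio of 3.99. A single ID made up most of the target sum, of the receptor sum and of the ligand sum. NRARP (ENSDARG00000091419) averaged 56.5 of 65.1 CPM of the target sum in the controls and 195 of 259 CPM in the compound mutants. NOTCH3 averaged 12.8 of 17.9 CPM of the receptor sum in the controls and 46.1 of 68.3 CPM in the compound mutants. Of the ligand sum, dll4 averaged 12.3 of 14.8 CPM in the controls and 37.3 of 49.5 CPM in the compound mutants. By itself dll4 did not pass, and its groups overlapped. Within a library, the summed targets were 2.74 to 5.44 times the summed receptors in the controls and 2.73 to 4.70 times in the compound mutants. The log2 of this ratio averaged 1.86 in the controls (SD 0.52) and 1.96 in the compound mutants (SD 0.44), and the difference of 0.10 was within this spread (exact two-sided permutation test, p = 1, n = 3 each). Counts were not divided by gene length, so such a ratio compares libraries and not genes.

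Vessel markers were split between those that rose and those that did not pass. Of 14 endothelial marker IDs, 6 rose, 0 fell and 8 did not pass, beside 13.0% higher and 9.92% lower over all tested genes. Of the 14, 11 reached the level of the filter in all 3 controls. Among those that rose, aplnra had 4, 3 and 0 reads in the controls and reached that level in none. It passed the filter through the compound mutants alone and so had to be higher there. The groups overlapped for 6 of the 14, among them the VEGF receptor gene KDR, at a log2 fold change of 0.08. Those that rose include the endothelial cadherin gene cdh5, the receptor gene TIE1 and etsrp, the ETS factor that starts the vessel program. The related receptor gene kdrl spanned 11.6 to 14.3 CPM in the controls and 15.8 to 22.9 CPM in the compound mutants and did not pass. Without dll4 and HEY2, which belong to the pathway, the remaining 12 summed to 144 to 186 CPM in the controls and 559 to 596 CPM in the compound mutants, a ratio of 3.38. The summed Notch targets were 0.241 to 0.477 times this endothelial sum in the controls and 0.414 to 0.497 times in the compound mutants. The log2 ratio was -1.33, -1.07 and -2.05 in the controls and -1.18, -1.01 and -1.27 in the compound mutants. It differed by 0.33 with overlap between the groups (exact two-sided permutation test, p = 0.4). The difference was 0.05 without control replicate 3 and became larger when control replicate 1 or 2 was left out instead. The part of vessel cells in the Notch values was not tested.

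Lists of other tissues are given beside the Notch values. Of 13 neural marker IDs, 7 were tested and 2 rose (SOX3 and 1 of the ZIC2 IDs), beside 13.0% of all tested genes. The other 6 were too low to test, among them the proneural genes neurog1 and ascl1a, at or under 0.165 CPM in every library. Of the 7 tested, only SOX3 reached the level of the filter in all 3 controls, and the ZIC2 ID that rose did so in 1 control, so its test rests on the group where it is high. The neural sum spanned 4.55 to 19.6 CPM in the controls and 63.9 to 114 CPM in the compound mutants. Of 15 tailbud and paraxial mesoderm IDs, 6 were tested and 1 rose, the homeobox gene cdx4, which is near the background of 13.0%. The other 9 were too low to test, with the 4 mesp genes at or under 0.364 CPM throughout. cdx4 had 3, 3 and 0 reads in the controls and passed the filter through the compound mutants alone, so it had to be higher there, and none of the 6 tested tailbud IDs reached the level of the filter in all 3 controls. The controls held a tailbud sum of 56.3, 15.3 and 4.37 CPM and the compound mutants one of 88.8, 87.8 and 56.7 CPM. This sum includes the Notch target genes her1 and her7, whereas dll4 and HEY2 were left out of the endothelial sum. her1 and her7 held 0.370 and 0.296 CPM in control replicate 1, and 1.91 and 1.06 CPM in compound mutant replicate 3. Without her1 and her7, compound mutant replicate 3 would lie below control replicate 1, so the groups would overlap. Of 6 somite muscle IDs, 5 were tested and 2 rose, beside 13.0% of all tested genes. The sum of all 6 spanned 335 to 1212 CPM against 1584 to 3918 CPM. Most of this sum was actc1b, at a mean of 708 of 795 CPM in the controls and 2596 of 3021 CPM in the compound mutants. Of 8 pronephros marker IDs, 6 were tested and 5 rose, beside 13.0% of all tested genes. Of the 6 tested, 3 reached the level of the filter in all 3 controls. The pronephros sum spanned 60.7 to 77.6 CPM in the controls and 365 to 556 CPM in the compound mutants, a ratio of means of 6.20. Control replicate 3 was the lowest library for the sums of Notch receptors, ligands and targets and also for the endothelial, neural, tailbud, muscle and pronephros sums. No marker list had an ID at 0 in all 3 controls. The part of these tissues in the Notch values was not tested.

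**Figure D2:**
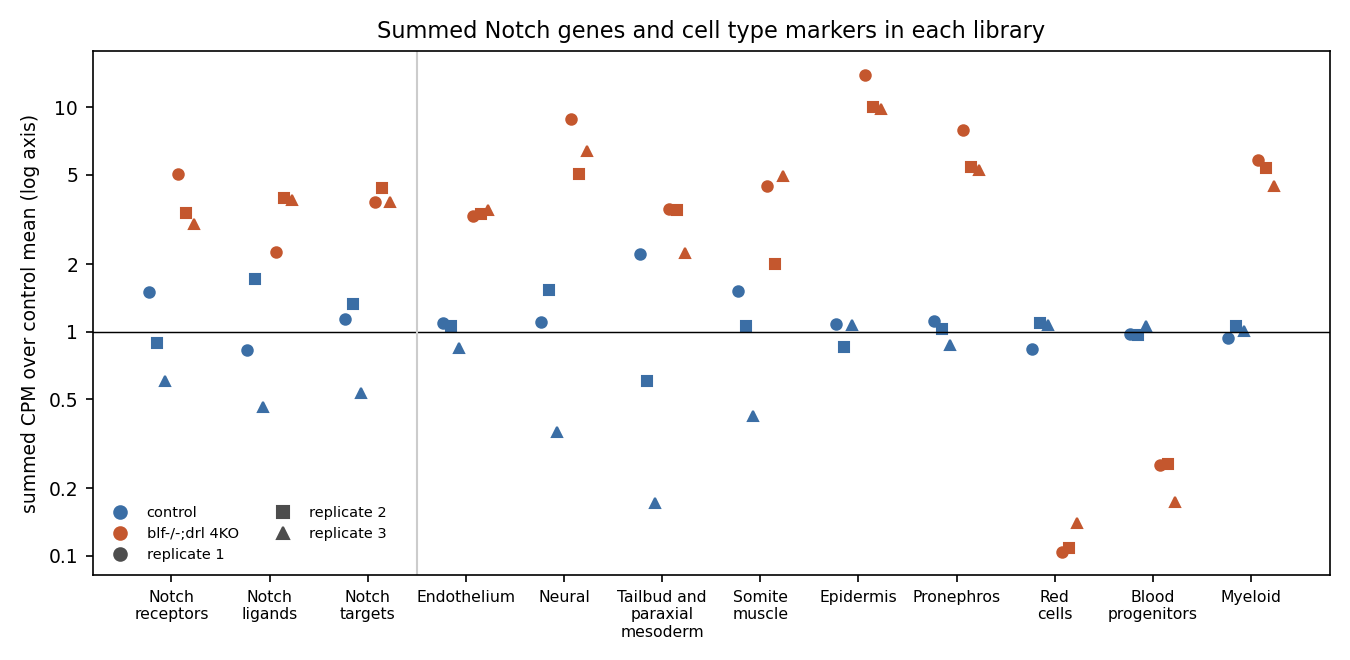
Summed CPM of the Notch roles and of 9 cell type marker lists in each library, divided by the mean of the 3 controls (log axis); each symbol is 1 library. The receptor, ligand and target sums of the compound mutants lie at ratios of means of 3.82, 3.35 and 3.99, beside 3.38 for endothelium and 11.3 for epidermis. Red cells (8.48-fold lower) and blood progenitors (4.38-fold lower) lie below 1. Of 7 blood progenitor IDs, 5 were tested and 2 fell, LMO2 and TAL1, beside 9.92% of all tested genes. In the controls these averaged 1330 and 504 CPM of a sum of 1992 CPM.

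A wider list of the pathway held 64 IDs, the 9 included, of which 51 were tested. Of these 14 rose, 2 fell and 35 did not pass, with a median log2 fold change of 1.42, beside 13.0% higher, 9.92% lower and a median of 0.11 over all tested genes. Of the 51, 38 reached the level of the filter in all 3 controls, and of the IDs named here as higher jag2b and her12 did not. With the 9 IDs left out, 10 of 42 rose and 2 fell, with a median of 1.15. This list too was chosen with earlier results of these data known, so its counts and medians are description only. The receptor gene notch2 rose: the controls held 17.8, 12.0 and 6.37 CPM and the compound mutants 59.4, 32.4 and 57.1 CPM, without overlap. The ratio of mean CPM of notch2 was 4.12 (log2 fold change 2.04, SE 0.48, edgeR adjusted p = 0.0113).

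Of the 5 ligand genes beyond dll4 and dlc, 2 rose, the Jagged genes jag1b and jag2b, beside 13.0% of all tested genes. The Jagged genes jag1a and jag2a and the Delta gene dlb did not pass. Their groups overlapped, at log2 fold changes of 0.59, -0.23 and 2.61. Of these 5, 3 reached the level of the filter in all 3 controls. The controls held 2.22, 1.32 and 3.09 CPM of jag1b and the compound mutants 20.8, 22.8 and 12.1 CPM. The groups did not overlap (log2 fold change 3.07, SE 0.75, edgeR adjusted p = 0.0129), and jag1b was called under each of its 14 alternatives. Among these, it met the filter of 10 CPM in 3 libraries through the compound mutants alone. jag2b spanned 0.495 to 1.26 CPM in the controls and 7.06 to 8.38 CPM in the compound mutants, a ratio of means of 8.03 (edgeR adjusted p = 0.0466). The jag2b call was lost when any 1 library was left out (edgeR adjusted p = 0.0714 to 0.131), and also with no filter and with the replicate block.

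Of 11 further target genes that could be tested, 4 rose and 0 fell, beside 13.0% higher and 9.92% lower over all tested genes. Only 6 of the 11 reached the level of the filter in all 3 controls. The others passed it with the help of the compound mutants, so a fall could hardly be called for them. her12, a her gene of the Hes5 type, had 19, 38 and 0 reads in the controls and 431, 1083 and 455 reads in the compound mutants. The log2 fold change of her12 was 4.62 (SE 1.06, edgeR adjusted p = 0.00929), and without control replicate 1 the adjusted p was 0.0510. EFNB2 (ENSDARG00000020164, 1 of 2 IDs with that symbol), which encodes the ephrin of arteries, spanned 15.4 to 23.3 CPM in the controls and 46.3 to 64.6 CPM in the compound mutants. Its log2 fold change was 1.46 (SE 0.36, edgeR adjusted p = 0.0133), with an adjusted p of 0.0564 without control replicate 3 and 0.0519 without compound mutant replicate 1. The other EFNB2 ID (ENSDARG00000074050) did not pass, with overlap between the groups (log2 fold change 0.46, SE 0.79, edgeR adjusted p = 0.714). The shared symbol does not tell which of the 2 IDs is efnb2a.

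The 2 other targets that rose, her4.1 and HEY1, were named after their values were seen. Mean CPM rose 7.34-fold for her4.1 (edgeR adjusted p = 0.0277) and 6.66-fold for HEY1 (edgeR adjusted p = 0.0278). Each lost its call on leaving out single libraries. For her4.1 these were control replicates 1 and 3 and compound mutant replicates 2 and 3 (edgeR adjusted p = 0.0610 to 0.0844), and for HEY1 control replicates 1 and 3 and compound mutant replicates 1 and 3 (0.0545 to 0.0948). HEY2, the arterial gene known from the zebrafish gridlock mutant, had 0.518, 4.04 and 0.637 CPM in the controls, and the compound mutants held 5.78, 9.28 and 9.90 CPM. Its groups did not overlap, and it did not pass (edgeR adjusted p = 0.157). The her4 genes of the list beside her4.1 were also named after their values were seen. Of these, her4.2, her4.4 and her4.5 averaged higher in the compound mutants, but their groups overlapped. They did not pass (edgeR adjusted p = 0.293, 0.218 and 0.217), and her4.3 was too low to test. How reads that match several her4 genes were counted is not stated.

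Of 5 tested glycosylation IDs 1 fell, and of 7 tested cleavage IDs 1 fell and 1 rose, a share near the 22.9% of all tested genes called in either direction. POGLUT1, whose enzyme adds glucose to Notch, fell from 24.6, 22.2 and 57.1 CPM to 6.08, 5.26 and 12.6 CPM (log2 fold change -2.12, SE 0.59, edgeR adjusted p = 0.0244). adam10a, which encodes a protease of the Adam10 type that cuts Notch outside the membrane, fell from 381, 345 and 272 CPM to 232, 188 and 99.5 CPM (log2 fold change -0.94, SE 0.28, edgeR adjusted p = 0.0324). In both the groups did not overlap. PSENEN, a subunit of the gamma-secretase that cuts Notch within the membrane, rose from 33.3, 27.2 and 28.3 CPM to 75.4, 53.5 and 67.7 CPM (log2 fold change 1.15, SE 0.31, edgeR adjusted p = 0.0221).

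All of these calls depended on single libraries. POGLUT1 was lost without control replicate 3 (edgeR adjusted p = 0.154) and without compound mutant replicate 1 or 2 (0.0759 and 0.0721). PSENEN was lost without control replicate 2 or 3 (0.0716 and 0.0726) and without compound mutant replicate 1 (0.0763). adam10a was lost without control replicate 1 or 2 and without compound mutant replicate 2 or 3 (0.0685 to 0.125), with library totals (0.148) and with no filter (0.125).

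Among the nuclear genes, RBPJ encodes the DNA-binding partner of Notch. The IDs listed as RBPJ, named after their values were seen, had log2 fold changes of 1.42 (ENSDARG00000052091, edgeR adjusted p = 0.0808) and 0.08 (ENSDARG00000003398, edgeR adjusted p = 0.952). Neither passed.

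Of 5 tested genes that turn the pathway down 1 rose, which is near the background of 13.0%. This was NUMB, which encodes an endocytic adaptor that holds Notch back. The controls held 11, 12.9 and 6.09 CPM of NUMB and the compound mutants 38.3, 43.7 and 35.6 CPM, without overlap (log2 fold change 1.97, SE 0.46, edgeR adjusted p = 0.0109). MIB1, the ligase gene of ligand endocytosis, had a log2 fold change of 0.79 (SE 0.46, edgeR adjusted p = 0.244) and did not pass.

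**Figure D3:**
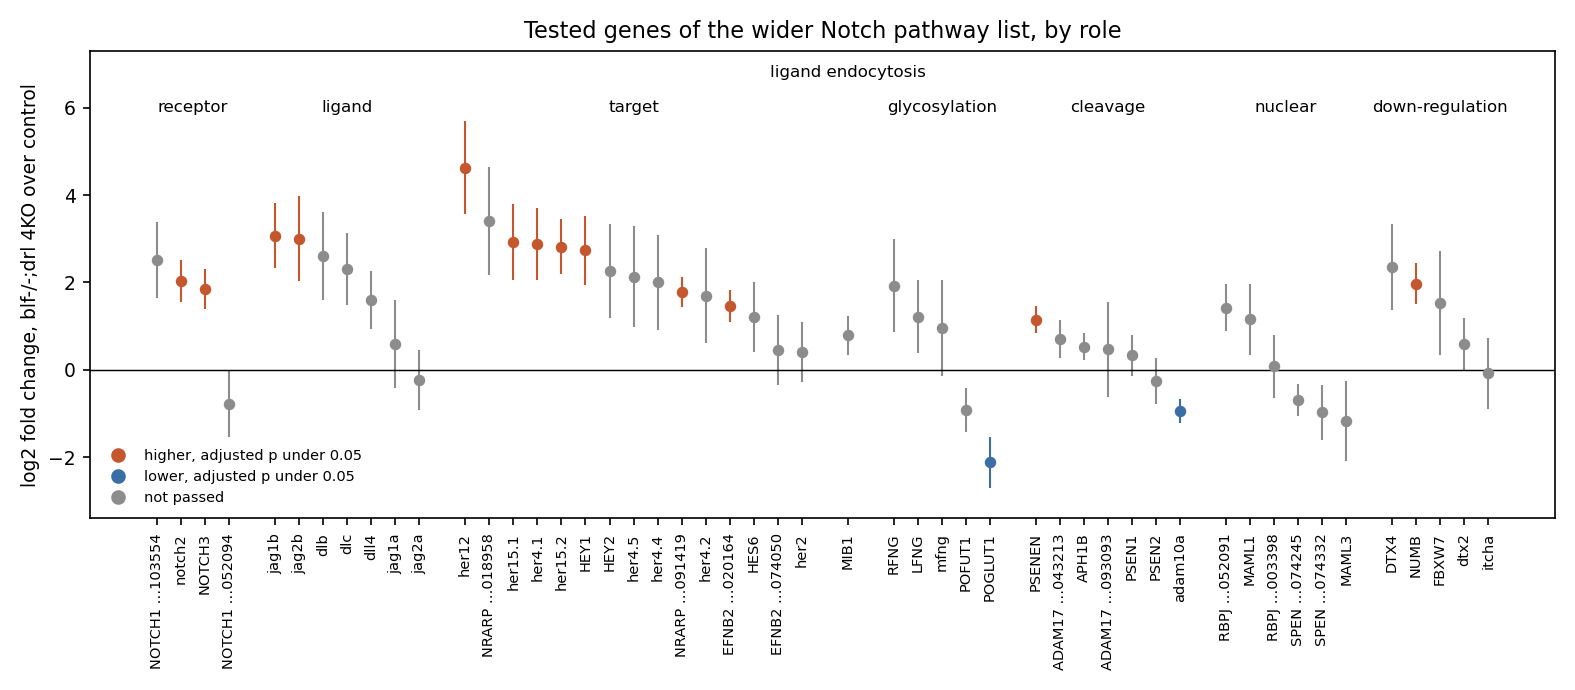
Log2 fold change (blf-/-;drl 4KO over control) of the tested IDs of the wider Notch list, 1 of the 51 left out, ordered by role; points are edgeR estimates, bars are SE, and colours mark the calls. Among the IDs called higher are 2 receptors, 2 ligands and 7 targets, and the 2 called lower are POGLUT1 and adam10a.

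Across the settings tried on single IDs, the fold changes of 8 of the 9 Notch IDs stayed above 0. Among the 4 called IDs, that of her15.1 spanned the widest log2 range, from 2.52 to 4.44. Scaling by library totals shifted the median log2 fold change of all genes by 0.32 and moved the split of all called genes from 1887 higher and 1440 lower to 2402 higher and 959 lower.

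**Figure D4:**
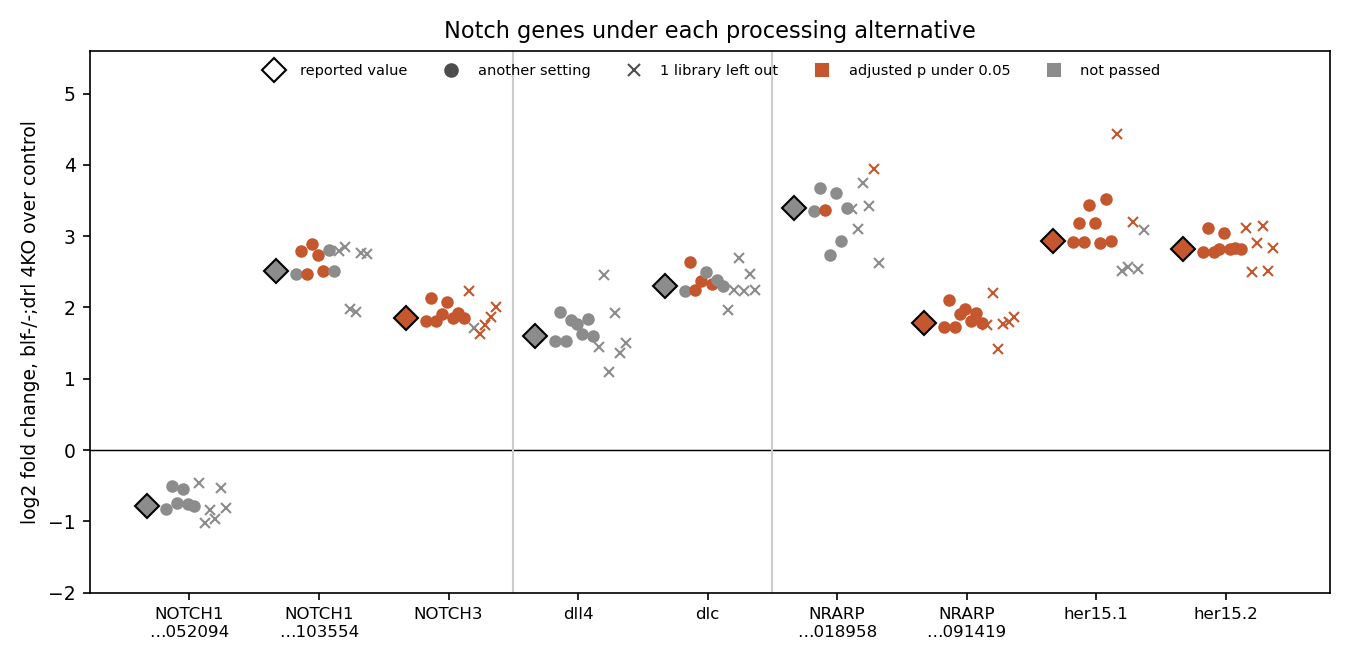
Log2 fold change of the 9 Notch IDs as reported (diamonds), under other settings (circles) and with 1 library left out (crosses), without the summed copies; orange marks an adjusted p under 0.05 and grey a value that did not pass. NRARP (ENSDARG00000091419) and her15.2 are orange throughout, and dll4 and NOTCH1 (ENSDARG00000052094) are grey throughout.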

How the data were processed

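The authors deposited raw counts by Ensembl gene ID, 1 file for each of the 6 libraries. The submitters' processing notes name bcl2fastq, FastQC 0.11.9, HISAT2 2.2.1, SAMtools 1.10, featureCounts 1.6.0 and build GRCz11. Strand setting and handling of multi-mapping reads: not given in the sources used here. A table of Ensembl IDs supplied symbols for 29201 IDs (89.8%). Positions are not printed, since the RefSeq table is of another build, and no sequences were used.

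Differences were tested in edgeR 4.0.16 (R 4.3.3) after filterByExpr (minimum count 10) and TMM scaling, with a robust quasi-likelihood fit, 3 libraries a group and no covariate. Filters were applied before TMM scaling. The SE is the log2 fold change divided by the square root of F. Shares and ratios were compared by exact permutation over libraries. Within groups, libraries differed beyond sampling noise (chi-square over its degrees of freedom, 38.1 to 78.5). Alternatives covered the tool (DESeq2 1.42.0 and voom in limma 3.58.1), the scaling (RLE or library totals), the filter (none, or 10 CPM in 3 libraries), fits without globin and mitochondrial genes, a replicate block, summed copies and omission of each library. The code was tested on simulated data.

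The members and lists were chosen with earlier results of these data known. The text names every member ID. Each role of the wider list gave up to 4 genes of smallest p past the threshold, or else the 1 of smallest p. Further genes of that list, such as HEY2 and the second EFNB2 ID, were reported outside this rule after their values were seen. Of the 68 names in the wider list 61 had an ID. The name dld was not matched, because its capital form is the symbol of a metabolic enzyme. The planned shares of notch1 and nrarp paralogs were computed by gene ID. Of the wider list, 1 gene is counted but not reported here by itself.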

Additional observations from a re-analysis of the deposited data

How the results depend on the processing

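Of the values for single genes recomputed under an alternative, 310 kept their direction and side of the threshold, 41 lost the call, 13 gained one and 1 reversed. The last is NOTCH1 (ENSDARG00000052094), at log2 fold change 2.12 when the counts of the other NOTCH1 ID are added. The 4 Notch IDs called higher became 7 with DESeq2 and 2 to 4 with 1 library left out. The wider list had 8 to 12 higher and 0 to 1 lower with 1 library left out, and 1 lower with library totals and with no filter. Over all genes, 959 were lower with library totals, 881 with no filter and 813 to 1189 with 1 library left out, where fewer samples entered. Libraries of the 2 groups share only replicate numbers (correlations of same-numbered deviations 0.0035, -0.041 and -0.00068), and a replicate block gave 1651 genes higher and 1277 lower, 4 Notch IDs higher, and 12 higher and 2 lower in the wider list. The log2 ratio of targets to receptors differed by -0.10 to 0.39 with 1 library left out and by -0.050 without her15.1 and her15.2. That of receptors to endothelium, 0.23 with all libraries, differed by -0.0075 to 0.51 with 1 library left out. Low counts limit NOTCH1 (ENSDARG00000052094), with 9 to 27 reads a library. Other causes were not tested.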

Other observations

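The oscillating genes of the segmentation clock, her1 and her7, were too low to test and uneven among the compound mutants. The controls had 4, 1 and 1 reads of her7, and compound mutant replicates 1, 2 and 3 had 324, 1 and 16. For her1 these were 5, 0 and 2 against 68, 1 and 29 reads. Compound mutant replicate 1 was the highest library for both, and replicate 2 had 1 read of each. her12 was highest in compound mutant replicate 2, with 1083 reads. her11 had 37 reads in compound mutant replicate 3 and 1 to 3 reads in every other library.

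The 2 IDs listed as DLL1, the mammalian Delta gene to which zebrafish dla and dld are related, were taken up after their values were seen. DLL1 (ENSDARG00000020219) had 5.55, 6.43 and 1.18 CPM in the controls, and the compound mutants had 10.9, 9.05 and 31.3 CPM. Its groups did not overlap, and it did not pass (log2 fold change 1.96, SE 0.85, edgeR adjusted p = 0.125), except with DESeq2 (adjusted p = 0.0414). DLL1 (ENSDARG00000010791) had 8.51, 5.28 and 0.910 CPM against 10.3, 7.87 and 17.6 CPM, with overlap (log2 fold change 1.28, SE 0.90, edgeR adjusted p = 0.342). Control replicate 3 was the lowest library for both.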
